A study of Mus musculus with 4 samples.

Results

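The 9 genes described here encode the cyclic AMP pathway that holds the mouse oocyte in meiotic prophase: the receptors Gpr3 and Gpr12, the adenylyl cyclase Adcy3, the phosphodiesterase Pde3a, and the subunits of cyclic AMP-dependent protein kinase Prkaca, Prkacb, Prkar1a, Prkar2a and Prkar2b. They were chosen by name, and all 9 are among the 25587 reference genes for which RNA-Seq values were deposited. Values came from 4 libraries of wild-type C57BL/6Babr mice: non-growing oocytes (NGOs) from animals 5 days old, growing oocytes from animals of 8 to 14 days (GO1) and of 15 days (GO2), and fully grown germinal vesicle oocytes (FGOs) at 20 days. No animal was treated, ribosomal RNA was depleted, and each library was made from a pool of oocytes, with 1 library per stage and no replicate. A dUTP protocol served for NGOs and FGOs, and the ScriptSeq v2 kit for GO1 and GO2. FGOs were therefore set against NGOs and GO2 against GO1, since stage and kit cannot be told apart across these pairs.

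Prophase arrest depends on cyclic AMP made within the oocyte. Receptors that are active without a ligand keep the stimulatory G protein switched on, adenylyl cyclases make cyclic AMP from ATP, and phosphodiesterase 3A degrades it. Cyclic AMP releases the catalytic subunits of the kinase from its regulatory subunits, and the free kinase keeps CDK1 inactive. Cyclic GMP that enters from the surrounding granulosa cells inhibits phosphodiesterase 3A, and loss of this inhibition lets meiosis resume.

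The deposited values are RPKM (read counts divided by exon length in kilobases and by the size of the library), from which whole read counts were recovered. The totals behind the values were 110595207, 126796740, 241385707 and 119629248 across NGOs, GO1, GO2 and FGOs. Values give the share of a gene in the RNA of a library, so that an amount per oocyte cannot be read from them, and fewer cells of a type cannot be told apart from less RNA per cell. Intervals are 95 % intervals, cover counting error only and take each count as a separate fragment, which makes them too narrow. They do not cover the variation between pools of oocytes, for which there was no replicate, and no p values were computed. All 12 oocyte markers examined were above 1 RPKM in every library, and their summed level was between 4860 and 7320. From NGOs to FGOs 2 of these were at least 2-fold higher (Bmp15 and Oosp1), 4 lower (Ddx4, Zp2, Zp3 and Figla) and 6 within 2-fold. The oocyte sizes that the authors give for NGOs and GO1 overlap, and whether some NGOs had begun to grow was not tested. The 12 granulosa cell markers summed to 3.37, 2.61, 5.19 and 10.8 RPKM across NGOs, GO1, GO2 and FGOs. In FGOs 3 of them were at 1 RPKM or more, Cyp19a1 (6.08), Kitl (1.63) and Inha (1.54). Each was above its NGO level, of 0.518, 0.514 and 0.638 in the same order, while Foxl2 was at 0.0753 in NGOs and 0.0265 in FGOs. From NGOs to FGOs 4 of the 12 granulosa markers were at least 2-fold higher, 2 lower (Foxl2 and Wt1) and 6 within 2-fold. Stroma and theca markers (8 genes) summed to 5.61 RPKM in NGOs and to between 0.304 and 0.471 in the other libraries, and blood and endothelium markers (4 of 5 in the table) summed to between 2.70 and 9.71, of which Pecam1 made up most.

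At least 3 counts were found for all 9 genes in every library. In all 4 libraries 7 of them lay above the median level of the genes detected there, the exceptions being Gpr12 and Adcy3. From NGOs to FGOs, a change of at least 2-fold was seen for 2 of the 9 genes, Gpr12 (higher in FGOs) and Prkacb (lower), where 34.4 % of 15252 genes tested passed this threshold (17.7 % higher and 16.8 % lower). From GO1 to GO2 it was seen for Gpr12 alone (higher in GO2), against 9.88 % of 15736 genes (7.28 % higher and 2.6 % lower). The median log2 change from NGOs to FGOs was 0.06 over the 9 genes and -0.01 over all genes tested, and for GO1 to GO2 these medians were -0.03 and 0.06. Past 4-fold was Gpr12 alone in both pairs, against 14.1 % and 1.82 % of all genes tested. With 9 genes, nothing particular to them is read from these counts.

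**Figure D1:**
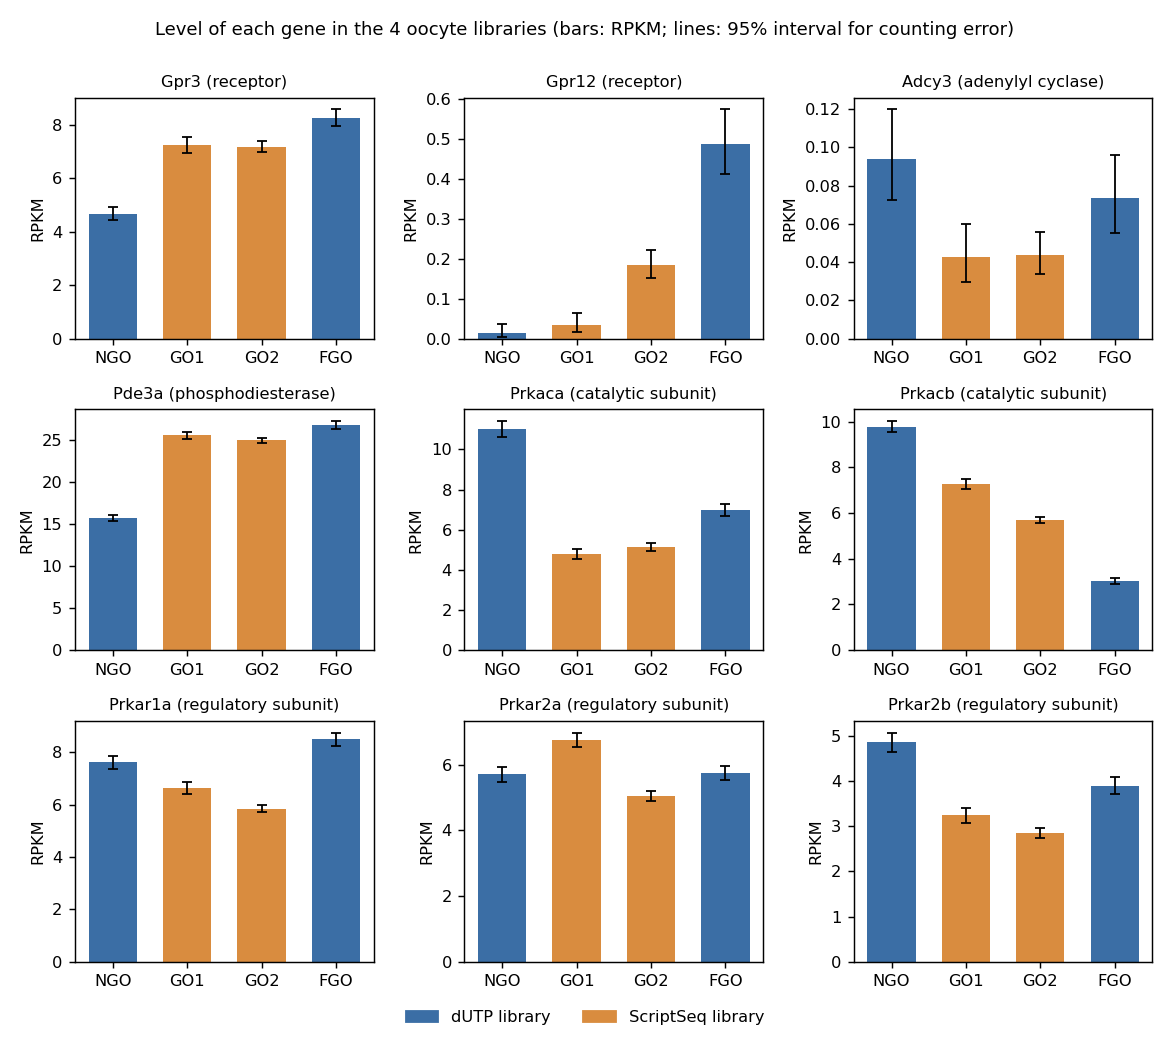
RPKM of each of the 9 genes (vertical axes, linear and starting at 0, with a different scale for each gene) in the NGO, GO1, GO2 and FGO libraries. Bars are the deposited value of 1 library, blue for the dUTP protocol and orange for the ScriptSeq kit, and lines are 95 % intervals for counting error. Gpr12 is higher at each stage up to 0.488 in FGOs, Prkacb is lower at each stage down to 3.03, and Adcy3 stays under 0.1 RPKM throughout.

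Gpr3, the receptor whose constant activity maintains arrest in mouse oocytes, was at 4.66 RPKM in NGOs (95 % interval 4.42 to 4.91), 7.24 in GO1 (6.96–7.53), 7.18 in GO2 (6.97–7.39) and then 8.26 in FGOs (7.96–8.58). It was lowest in NGOs and highest in FGOs, and the intervals of GO1 and GO2 overlap. FGOs exceeded NGOs by 0.88 on the log2 scale (interval 0.79 to 0.97), or 1.84-fold, and the log2 change between GO1 and GO2 was -0.01 (-0.08 to 0.06). Across the libraries Gpr3 lay between the 63.5 and the 76.0 percentile of detected genes.

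The first bases of Gpr3 (chromosome 4 from 133209340 to 133212536, minus strand, GRCm38) are shared over 406 bp with Cd164l2, which the table lists on the plus strand from 133212131 to 133224555. Cd164l2 was at 81.3, 22.6, 32.3 and 90.3 RPKM across NGOs, GO1, GO2 and FGOs. Whether the values were counted by strand is not given in the sources used here, and how many reads of Cd164l2 stand in the Gpr3 value was not tested.

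Gpr12, a close relative of Gpr3 that also couples to the stimulatory G protein, was far lower and had the largest log2 changes of the 9 genes on scaled counts. Its counts over NGOs, GO1, GO2 and FGOs were 4, 11, 110 and 144, and its levels 0.0147 (0.00399–0.0375), 0.0352 (0.0175–0.0629), 0.185 (0.152–0.223) and 0.488 RPKM (0.411–0.574). The level was higher at each stage than at the one before, but the intervals of NGOs and GO1 overlap. The kit also changes from NGOs to GO1 and from GO2 to FGOs. This order of levels was found for 10.5 % of the 12918 genes that had 20 counts or more in all libraries, to which Gpr12 does not belong. From NGOs to FGOs it was 34.5-fold higher (interval 13.2 to 128.4), a log2 change of 4.80, and from GO1 to GO2 5.27-fold higher (2.83–10.9), a log2 change of 2.33. Both folds rest on few counts in the earlier library, and with 1 RPKM added before taking logs the log2 changes were 0.55 and 0.20, under the threshold and no longer the largest (Prkacb -1.42 from NGOs to FGOs and Prkar2a -0.36 from GO1 to GO2). Gpr12 lies on chromosome 5 from 146582151 to 146585239, and no other listed gene overlaps it. The granulosa marker sum was also highest in FGOs, at 10.8 RPKM, with Cyp19a1 its largest part and markers of that list going both ways. The part of such RNA in the Gpr12 value was not tested.

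Of the summed RPKM of Gpr3, Gpr12 and Gpr6, the remaining relative, Gpr12 made up 2.51 % in GO2 (2.09–3.01 %) and then 5.57 % in FGOs (4.75–6.52 %). Gpr3 was 318.2 times the level of Gpr12 in NGOs (interval 119.3 to 849.0), 206.1 times in GO1 (114.0–372.6), 38.9 times in GO2 (32.2–47.0) and then 16.9 times in FGOs (14.3–20.0). The ratio of Gpr3 to Gpr12 was thus smaller in FGOs than in any other library, while Gpr3 still made up 94.4 % of the sum. GO1 and GO2 also differ from NGOs and FGOs in kit. Gpr6 is listed at 0 in all 4 libraries.

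The promoters of both receptors and of Adcy3 are shown because Gpr3 and Gpr12 are related genes at very different levels, and Adcy3 is, with Gpr12, the lowest of the 9. Windows of 300 bases hold the transcription start nearest to the deposited start of the gene, with most of their bases before it. They were taken from RefSeq on GRCm38.p6 and are written 5′ to 3′ along the gene. Capitals mark the cyclic AMP response core TGACG on either strand.
Gpr3 (chr4:133212487-133212786, minus strand): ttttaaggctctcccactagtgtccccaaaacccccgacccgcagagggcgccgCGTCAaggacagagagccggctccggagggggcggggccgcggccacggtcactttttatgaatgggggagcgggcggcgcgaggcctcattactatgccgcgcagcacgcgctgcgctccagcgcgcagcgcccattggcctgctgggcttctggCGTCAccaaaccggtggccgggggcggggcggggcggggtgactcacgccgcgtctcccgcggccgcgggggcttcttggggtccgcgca
Gpr12 (chr5:146585190-146585489, minus strand): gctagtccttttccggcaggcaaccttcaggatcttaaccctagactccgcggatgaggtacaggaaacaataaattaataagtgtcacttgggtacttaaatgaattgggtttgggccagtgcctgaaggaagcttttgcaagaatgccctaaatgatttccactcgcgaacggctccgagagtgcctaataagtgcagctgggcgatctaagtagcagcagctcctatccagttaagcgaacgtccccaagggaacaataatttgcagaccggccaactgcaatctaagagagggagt
Adcy3 (chr12:4133147-4133446, plus strand): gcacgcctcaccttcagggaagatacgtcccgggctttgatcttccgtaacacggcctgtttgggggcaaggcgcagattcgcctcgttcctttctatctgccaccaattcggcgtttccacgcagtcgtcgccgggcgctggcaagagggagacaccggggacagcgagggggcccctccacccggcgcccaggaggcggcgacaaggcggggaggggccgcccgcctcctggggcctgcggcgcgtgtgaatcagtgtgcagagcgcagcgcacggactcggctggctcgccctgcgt

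Gpr3 has 38 CpGs in this window and Gpr12 has 11, where the median of the 32851 promoter windows of RefSeq is 7. The window of Gpr12 has more CpGs than 58.6 % of all windows. Adcy3, whose RNA was the lowest of the 9 genes in GO2 and in FGOs, has 33 CpGs, more than 91.4 % of windows. Its window starts from a RefSeq start 294 bases from the start in the deposited table. Windows were found for 8 of the 9 genes, Pde3a having none. In the others the number of CpGs was 41 in Prkacb, 32 in Prkar2b, 31 in Prkaca, 31 in Prkar2a and 7 in Prkar1a. Most of these genes have more than 1 window, up to 6 in Prkar1a, and only the nearest was scored. Which start is used in oocytes was not tested. The core TGACG occurs 2 times in the windows of Gpr3 and Prkaca, 1 time in those of Prkacb, Prkar1a and Prkar2a, and not in the other 3, and 20.8 % of all windows hold it. E-boxes, written CANNTG and recognised by basic helix-loop-helix factors, were found 3 times each in Gpr12 and Prkar2b and 1 time each in Prkaca and Prkar1a, and occur in 72.3 % of all windows. The element TAATTG, recognised by the oocyte homeobox factor NOBOX, was found in none of the 8 windows by exact match on either strand and is in 8.0 % of all. These matches describe the letters of the windows and no binding was measured.

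Adcy3, the cyclase to which cyclic AMP production in rodent oocytes has been assigned, was at a low level in all 4 libraries. Its counts over NGOs, GO1, GO2 and FGOs were 65, 34, 66 and 55, and its levels 0.0941 RPKM (0.0726–0.120), 0.0429 (0.0297–0.0600), 0.0438 (0.0339–0.0557) and 0.0736 (0.0555–0.0958). Each library's interval overlaps that of its neighbour in the order of levels. The intervals of both changes hold 0, at -0.30 on the log2 scale from NGOs to FGOs (-0.85 to 0.24) and at 0.03 for GO1 to GO2 (-0.58 to 0.67). The last 17522 bp of Adcy3 (chromosome 12 from 4133103 to 4213525, plus strand) are shared with Cenpo on the minus strand, which was at 6.75, 7.52, 12.2 and 13.5 RPKM across NGOs, GO1, GO2 and FGOs. How many reads of Cenpo stand in the Adcy3 value was not tested.

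Among 10 adenylyl cyclase genes, Adcy3 made up 0.656 % of the summed RPKM in NGOs (0.515–0.836 %), 0.25 % in GO1 (0.179–0.350 %), 0.2 % in GO2 (0.157–0.255 %) and then 0.234 % in FGOs (0.180–0.305 %). Most cyclase RNA came from Adcy1, Adcy5, Adcy6 and Adcy9. Adcy1, which calcium and calmodulin stimulate, was at 4.20, 6.81, 8.04 and 9.61 RPKM across NGOs, GO1, GO2 and FGOs. It was 44.7 times the level of Adcy3 in NGOs (35.0–57.0), and between 130.6 and 183.7 times in the other libraries.

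Of the other 9 cyclases, 7 had enough counts for a comparison from NGOs to FGOs. At least 2-fold higher in FGOs were 4 and lower was 1, against 17.7 % and 16.8 % of all genes tested. Adcy8, also stimulated by calcium, was at 0.246 RPKM in NGOs and 1.36 in FGOs, a log2 change of 2.51 (2.26–2.79). The calcium-inhibited cyclases Adcy6 and Adcy5 changed by 2.15 (2.05–2.25) and 1.59 (1.52–1.66), and Adcy1 by 1.25. Adcy7 was lower, with 20 counts in NGOs and 0 in FGOs. Adcy9 was nearly level between both libraries, at 5.15 RPKM in NGOs and 5.22 in FGOs. The share of Adcy9 in the family was 35.9 % in NGOs and 16.6 % in FGOs, and that of Adcy5 was 21.7 % and 28.7 %. Summed over the family, the level was 14.3, 17.1, 21.9 and 31.4 RPKM across NGOs, GO1, GO2 and FGOs. The median log2 change of the 7 genes was 1.25, where the median of all genes tested was -0.01. From GO1 to GO2 it was 0.48 over 6 genes, of which Adcy10 passed 2-fold (1.11) on 5 counts in GO1 and 22 in GO2. Of all genes tested, 9.88 % passed 2-fold in this pair.

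**Figure D2:**
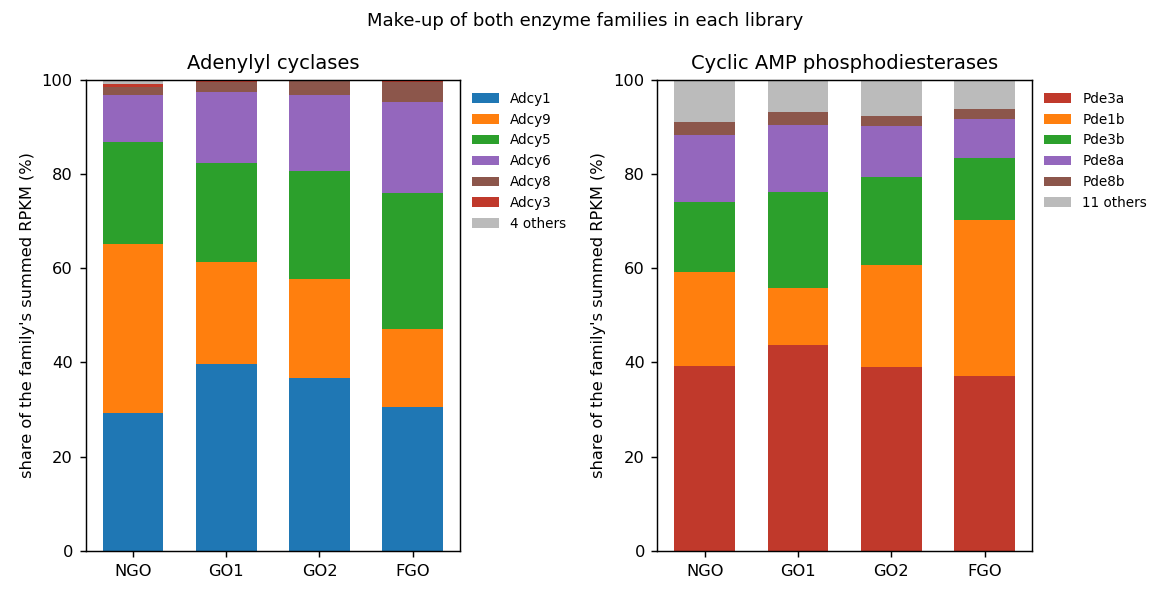
Share of each gene in the summed RPKM of its family (vertical axis, percent, 0 to 100) in the 4 libraries, for 10 adenylyl cyclases and 16 cyclic AMP phosphodiesterases. Adcy3 and Pde3a are in red, and grey stands for the genes not named. The share of Adcy3 is barely visible, at no more than 0.656 %, whereas Pde3a takes between 37.2 and 43.7 % and Pde1b grows to 33.0 % in FGOs.

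Pde3a had the highest level of the 9 genes in every library. It was at 15.8 RPKM in NGOs (15.4–16.1), 25.6 in GO1 (25.2–26.0), 25 in GO2 (24.7–25.3) and then 26.9 in FGOs (26.4–27.3), from the 85.8 percentile of detected genes in NGOs to the 92.8 percentile in GO2. NGOs were below the other stages, whose values differ by little, and the intervals of GO1 and GO2 overlap. FGOs exceeded NGOs by 0.82 on the log2 scale (0.78–0.86), or 1.77-fold, whereas GO2 differed from GO1 by -0.03 (-0.06 to 0.00). Gpr3 and Pde3a had the same order of libraries (NGOs, GO2, GO1, FGOs) and similar changes. The place of GO1 against GO2 rests on overlapping intervals in both genes. How many other genes share this order was not counted, and nothing particular to both genes is read from it. Pde3a lies on chromosome 6 from 141249269 to 141499351, with no overlapping gene in the table.

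Among 16 phosphodiesterase genes whose products degrade cyclic AMP, Pde3a was the highest in each library. It made up 39.1 % of their summed RPKM in NGOs (38.5–39.8 %), 43.7 % in GO1 (43.2–44.3 %), 39.0 % in GO2 (38.7–39.4 %) and then 37.2 % in FGOs (36.7–37.7 %). Its share of RPKM was lowest in FGOs, where its own level was highest, but in counts not divided by length the share was lowest in GO2 (33.5 %) and was 34.7 % in FGOs. Pde1b, which calcium and calmodulin stimulate and which degrades both cyclic nucleotides, was at 8.12, 7.0, 13.9 and 23.9 RPKM across NGOs, GO1, GO2 and FGOs, with log2 changes of 1.61 in the NGO to FGO pair (1.55–1.67) and 0.99 in the GO1 to GO2 pair. Pde3a was 1.94 times the level of Pde1b in NGOs (1.86–2.03), 3.66 times in GO1 (3.51–3.81), 1.80 times in GO2 (1.76–1.84) and then 1.13 times in FGOs (1.10–1.16).

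The related Pde3b was at 5.96, 12.0, 11.9 and 9.55 RPKM across NGOs, GO1, GO2 and FGOs, and Pde8a, specific for cyclic AMP, at 5.74, 8.35, 6.93 and 6.02. Of the 15 phosphodiesterases beside Pde3a, 13 could be compared from NGOs to FGOs, with 4 at least 2-fold higher and 2 lower, and 14 from GO1 to GO2, with 2 higher (Pde7b and Pde10a) and none lower. Pde7b, Pde10a and Pde1a had the largest increases from NGOs to FGOs, of 4.31, 3.34 and 3.27 on the log2 scale, but did not exceed 0.827 RPKM in any library. Pde7a and Pde4b changed by -1.52 (-1.69 to -1.36) and -1.04 (-1.26 to -0.82). The list had a median log2 change of 0.54 in the former pair and 0.25 in the latter.

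**Figure D3:**
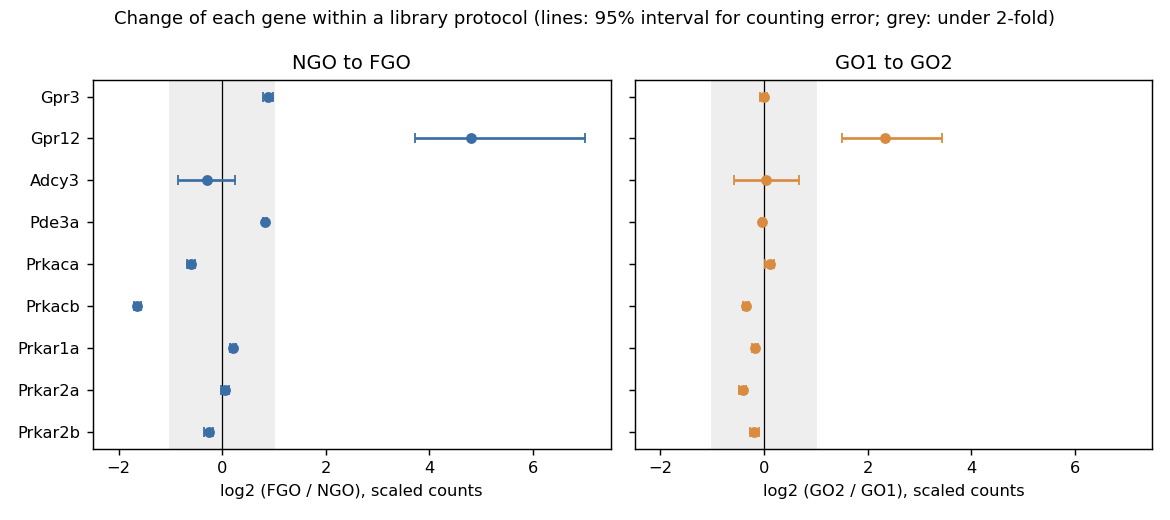
Log2 change of each of the 9 genes (horizontal axis, scaled counts) from NGOs to FGOs on the left and from GO1 to GO2 on the right. Points compare 1 library with 1 library, lines are 95 % intervals for counting error, and the grey band marks changes under 2-fold. Gpr12 lies outside the band in both panels, at 4.80 and 2.33, and Prkacb on the left, at -1.64.

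The catalytic subunits of the kinase took different courses. Prkacb (chromosome 3 from 146729579 to 146812960, minus strand) was at 9.77 RPKM in NGOs (9.52–10.02), 7.26 in GO1 (7.06–7.47), 5.68 in GO2 (5.55–5.81) and then 3.03 in FGOs (2.90–3.16). It was lower at each stage than at the one before, and no neighbouring intervals overlap. The kit also changes from NGOs to GO1 and from GO2 to FGOs. From NGOs to FGOs Prkacb was 3.11-fold lower (2.96–3.28), a log2 change of -1.64 (-1.71 to -1.56). From GO1 to GO2 its log2 change was -0.35 (-0.40 to -0.30). Of 12918 genes that had 20 counts or more in all libraries, 9.76 % were lower at each stage in the same way. NGOs also had the highest summed level of stroma and theca markers, at 5.61 RPKM, and GO1 the lowest, at 0.304. The part of such RNA in the Prkacb value was not tested.

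Prkaca, the other catalytic subunit gene (chromosome 8 from 83972978 to 83996445, plus strand), was at 11.0 RPKM in NGOs (10.6–11.4), 4.80 in GO1 (4.55–5.06), 5.15 in GO2 (4.96–5.34) and then 6.98 in FGOs (6.67–7.30). It was highest in NGOs and lowest in GO1 and GO2, whose intervals overlap. FGOs differed from NGOs by -0.60 on the log2 scale (-0.69 to -0.52), under 2-fold, and GO2 from GO1 by 0.11 (0.01–0.20). The ratio of Prkaca to Prkacb equalled 1.13 in NGOs (1.08–1.18), 0.661 in GO1 (0.623–0.701), 0.906 in GO2 (0.868–0.946) and then 2.31 in FGOs (2.17–2.46). By RPKM, Prkacb was thus the more abundant catalytic RNA in both growing stages, and Prkaca in NGOs and in FGOs. In FGOs Prkaca made up 69.8 % of the catalytic sum. This order depends on the exon lengths used, 2293 bases for Prkaca and 5451 for Prkacb. In counts not divided by length Prkacb was higher in every library, with 5891 against 2791 in NGOs and 1974 against 1915 in FGOs. Both growing stages were made with the ScriptSeq kit and the others with the dUTP protocol, so stage and kit cannot be told apart here.

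None of the 3 regulatory subunits among the 9 genes passed 2-fold in either pair. Prkar1a, the type I subunit (chromosome 11 from 109649405 to 109669656, plus strand), was at 7.62 RPKM in NGOs (7.37–7.87), 6.63 in GO1 (6.41–6.85), 5.85 in GO2 (5.70–6.00) and then 8.49 in FGOs (8.24–8.75). It was highest in FGOs, and no neighbouring intervals overlap. On the log2 scale FGOs differed from NGOs by 0.21 (0.15–0.27), and GO2 from GO1 by -0.18 (-0.24 to -0.12). The type II subunit Prkar2a (chromosome 9 from 108692143 to 108749512, plus strand) was at 5.71 RPKM in NGOs (5.49–5.93), 6.76 in GO1 (6.53–6.99), 5.05 in GO2 (4.91–5.19) and then 5.74 in FGOs (5.53–5.96). Intervals of NGOs and FGOs overlap, with a log2 change of 0.06 (-0.02 to 0.14), and GO1 stood above the other libraries.

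Prkar2b, the other type II subunit (chromosome 12 from 31958476 to 32061296, minus strand), was at 4.86 RPKM in NGOs (4.65–5.08), 3.25 in GO1 (3.08–3.41), 2.85 in GO2 (2.74–2.96) and then 3.90 in FGOs (3.72–4.09). It was the lowest of these 3 subunits in every library, and Prkar1b, which is not among the 9 genes, was lower still, at no more than 0.0373 RPKM. The Prkar2b log2 change from NGOs to FGOs was -0.26 (-0.36 to -0.17). Prkar1a made up 41.9 % of the sum of the 3 in NGOs (40.8–43.0 %) and 46.8 % in FGOs (45.8–47.9 %), and in GO1 Prkar1a and Prkar2a were nearly equal, at 39.9 % and 40.6 %.

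The summed RNA of the 3 regulatory subunits was 0.875 times that of both catalytic subunits in NGOs (0.848–0.903), 1.38 times in GO1 (1.33–1.43), 1.27 times in GO2 (1.24–1.30) and then 1.81 times in FGOs (1.74–1.89). The regulatory sum was nearly the same in NGOs (18.2 RPKM) and FGOs (18.1), whereas the catalytic sum was 20.8 in NGOs and 10.01 in FGOs. A ratio within a library is independent of the scaling between libraries, but not of the exon length by which each gene was divided. Between the growing stages and the other libraries the kit differs too. The ratio concerns RNA, and protein was not measured.

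**Figure D4:**
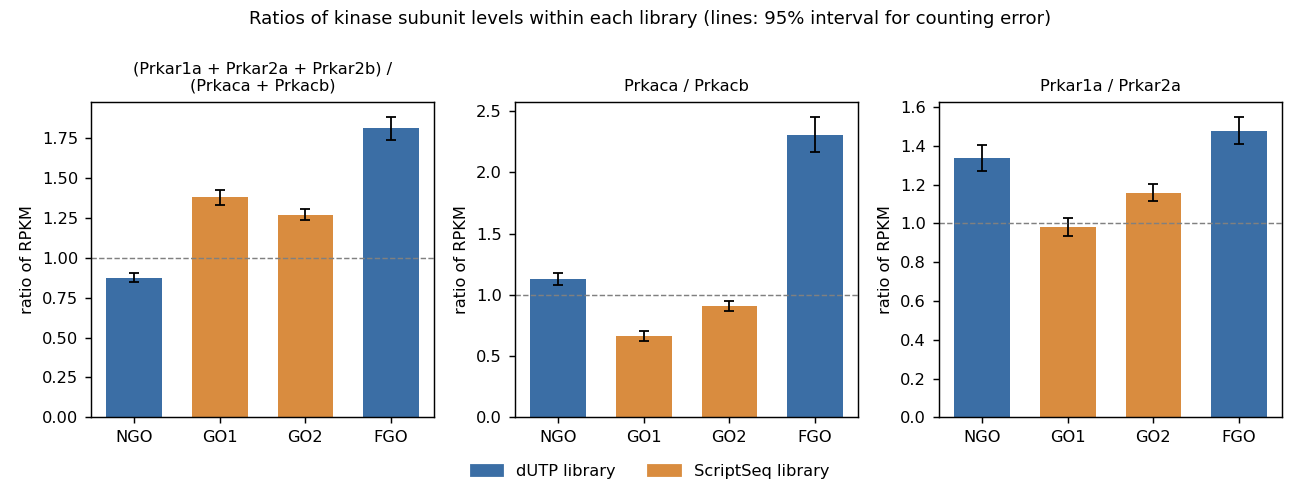
Ratios of kinase subunit RPKM within each library (vertical axes, starting at 0, dashed line at 1), for the summed regulatory over the summed catalytic subunits, Prkaca over Prkacb, and Prkar1a over Prkar2a. Bars are the ratio in 1 library and lines are 95 % intervals for counting error. The regulatory to catalytic ratio is 0.875 in NGOs and 1.81 in FGOs, and Prkaca over Prkacb is 0.661 in GO1 and 2.31 in FGOs.

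In 4 of the 9 genes (Adcy3, Prkaca, Prkar1a and Prkar2b) the values of both dUTP libraries were above those of both ScriptSeq libraries. This order was found for 32.8 % of the 12918 genes that had 20 counts or more in all libraries, and the opposite order, which none of the 9 genes had, for 21.4 %. For these 4 genes, what NGOs and FGOs share as stages and what they share as a kit cannot be told apart.

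Of 5 further genes encoding a kinase subunit, a related kinase or an inhibitor, none was higher by 2-fold in FGOs than in NGOs. Lower by 2-fold were 3, and the median log2 change of the 5 was -1.04. Over all genes tested, 17.7 % were higher and 16.8 % lower in this pair, and 9.88 % passed 2-fold from GO1 to GO2. The protein kinase inhibitor genes Pkig and Pkib, whose products bind free catalytic subunits, changed by -1.30 (-1.41 to -1.20) and -1.04 (-1.17 to -0.91), and Pkia, another such gene, had 74 counts in NGOs and 5 in FGOs. Pkig was at 5.77 RPKM in NGOs and between 1.52 and 2.25 in the other libraries, and Pkib was at 1.18, 1.43, 0.965 and 0.552 across NGOs, GO1, GO2 and FGOs. Prkx, a related kinase, was at 2.29 RPKM in NGOs and 1.23 in FGOs, and from GO1 to GO2 none of the 5 genes passed 2-fold. Pkig was highest in NGOs, as was the stroma and theca marker sum, and the part of such RNA in its value was not tested.

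Of the receptor and G protein list, 14 genes could be compared from NGOs to FGOs. At least 2-fold higher was 1 and lower was 1, against 17.7 % and 16.8 % of all genes tested. Rgs2, a regulator that speeds GTP hydrolysis by G proteins, was at 41.5, 58.4, 73.8 and 97.6 RPKM across NGOs, GO1, GO2 and FGOs, a log2 change of 1.29 (1.26–1.31). The G protein subunit gene Gnb1 was at 11.0 RPKM in NGOs and 4.65 in FGOs, a log2 change of -1.19 (-1.26 to -1.12). Gnas, which encodes the stimulatory alpha subunit that Gpr3 acts through, was at 17.5, 11.0, 10.2 and 9.31 RPKM across NGOs, GO1, GO2 and FGOs, and was looked up for this role after the values were seen. The authors describe multiple transcripts at the Gnas locus, and how much each adds to this value was not tested. The inhibitory alpha subunits Gnai3 and Gnai2 stayed between 25.5 and 28.8 and between 21.3 and 25.3 RPKM.

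Anchoring proteins hold the kinase at defined places in the cell. Of 18 anchoring genes, 14 could be compared from NGOs to FGOs, with a median log2 change of -0.13. At least 2-fold higher was 1 and lower were 3, against 17.7 % and 16.8 % of all genes tested. Akap12, a scaffold at the cell membrane, was the most abundant, at 111.2, 103.9, 74.3 and 45.4 RPKM across NGOs, GO1, GO2 and FGOs, a log2 change of -1.24 (-1.26 to -1.22). Akap1, which anchors the kinase at mitochondria, was at 37.7, 36.0, 53.8 and 69.6 RPKM, higher in FGOs than in NGOs by 0.94 on the log2 scale (0.91–0.97), under 2-fold. Akap1 was thus below Akap12 in NGOs and above it in FGOs. Akap11 and Ezr, which encodes ezrin, changed by -1.07 and -2.07, and Akap7 was highest in GO1, at 19.3 RPKM. The gene higher in FGOs was Akap6, at no more than 0.063 RPKM. Akap6 also was the only one of 15 genes past 2-fold from GO1 to GO2, against 9.88 % of all genes tested.

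The kinase acts on the switch that turns CDK1 on. Of 17 genes of this switch, 3 were at least 2-fold higher in FGOs than in NGOs and none lower. From GO1 to GO2 none passed 2-fold. Over all genes tested, 17.7 % were higher and 16.8 % lower in the former pair, and 9.88 % passed 2-fold in the latter. Wee2, the oocyte kinase that inhibits CDK1, was at 77.7, 115.7, 131.1 and 141.5 RPKM across NGOs, GO1, GO2 and FGOs, a log2 change of 0.92 (0.90–0.94). The cyclin genes Ccnb3 and Ccnb1 changed by 2.39 (2.27–2.51) and 1.39 (1.36–1.41), and the phosphatase gene Cdc25a by 1.01 (0.97–1.05), at the threshold. Mastl, a kinase that restrains the phosphatase opposing CDK1, was highest in GO1, at 40.8 RPKM.

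On the side of cyclic GMP and cell junctions, 16 genes could be compared from NGOs to FGOs, with a median log2 change of 0.40. At least 2-fold higher were 4 and lower were 5, against 17.7 % and 16.8 % of all genes tested. Gja4, which encodes the junction protein connexin 37 of the oocyte, was at 101.5, 53.2, 58.0 and 151.3 RPKM across NGOs, GO1, GO2 and FGOs. The receptor gene Npr2, which makes cyclic GMP in granulosa cells, did not exceed 0.0601 RPKM, and its ligand gene Nppc did not exceed 0.495, and both were lower in FGOs than in NGOs. Gucy1a3, a subunit of the soluble guanylyl cyclase, was at 1.30, 0.786, 0.319 and 0.165 RPKM across NGOs, GO1, GO2 and FGOs, with log2 changes of -2.91 (-3.25 to -2.60) and -1.29 from GO1 to GO2. Impdh1 and the junction gene Gjc1 changed by -2.23 and -2.42 from NGOs to FGOs. For these 5 genes too, NGOs are the library with the highest stroma and theca marker sum, and its part was not tested. The prostaglandin receptor gene Ptger4 was higher in FGOs by 1.17 on the log2 scale (1.08–1.27), and Pde6d by 1.01, at the threshold. Ptger2 is counted as higher on 9 counts in NGOs and 21 in FGOs, and the interval of its log2 change (-0.03 to 2.47) holds 0. Adcyap1r1, a receptor that couples to the stimulatory G protein, was at 0.037, 0.037, 0.2 and 0.767 RPKM across NGOs, GO1, GO2 and FGOs, with log2 changes of 4.38 (3.87–5.04) and 2.41 (1.90–3.02). It was higher by more than 2-fold in the later library of each pair, as were Gpr12 and, among others, Pde7b, Pde10a and Rapgef3. FGOs also had the highest granulosa marker sum. The part of such RNA in the values of Adcyap1r1, Ptger4 and Ptger2 was not tested.

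**Figure D5:**
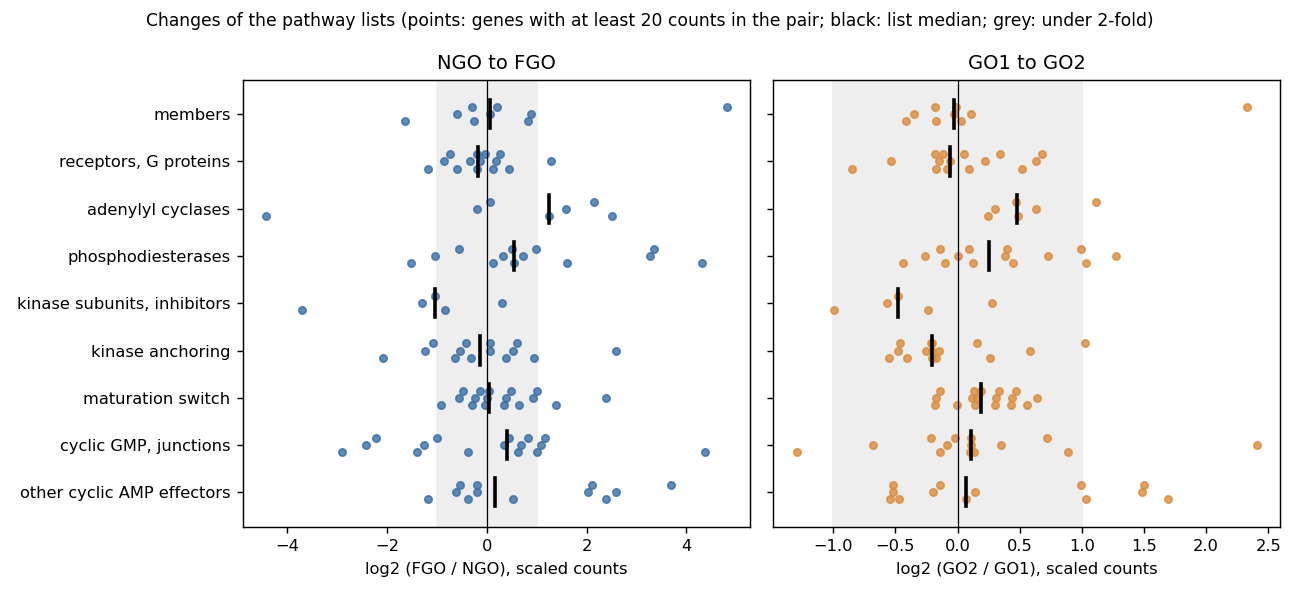
Log2 change (horizontal axes, scaled counts) of the 9 genes (the row named members) and of the 8 lists of pathway genes, from NGOs to FGOs on the left and from GO1 to GO2 on the right. Each point is a gene with at least 20 counts in the pair, black lines are list medians, and the grey band marks changes under 2-fold. The cyclase point at the far left is Adcy7, which had 0 counts in FGOs, and its place depends on the prior count. The median of the other adenylyl cyclases is 1.25 on the left, and that of the 9 genes is 0.06.

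Genes with the profile most like that of Gpr3, Adcy3 and Pde3a were sought among the 10749 genes that had 100 counts or more in all libraries, by the Euclidean distance between log2 RPKM values centred over the 4 libraries. With 4 points many genes lie close, and 130 genes were within a distance of 0.2 of Gpr3, 122 of Adcy3 and 153 of Pde3a. The nearest to Gpr3 were Gm10433 (distance 0.07), Casp8 (0.07), Tsc22d2 (0.08), Tnpo1 (0.08) and Pacrgl (0.08). For Pde3a they were Fbxw18 (0.02), Tceanc (0.07), Med4 (0.07), Osbpl9 (0.08) and Gucy2e (0.08). Fbxw18 was at 119.1, 192.0, 185.0 and 199.1 RPKM across NGOs, GO1, GO2 and FGOs. For Adcy3, whose own profile rests on fewer than 100 counts in each library, they were Prr5 (0.04), Cenpv (0.04), Yrdc (0.06), Gm20427 (0.07) and E130309D02Rik (0.08). The distances describe the shape of the profile over 4 libraries that also differ in kit.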

How the data were processed

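Libraries were sequenced as paired ends. The authors trimmed reads with Trim Galore 0.2.8 and mapped them to GRCm38 with TopHat2 2.0.9. The deposited values are in RPKM, not logged, although they are named as read counts. The counting program, its annotation and strand setting, and whether mates were counted apart are not given in the sources used here. In every library the counts on genes outnumber the uniquely mapped reads that the authors report. Counts are thus not all separate fragments, and counting intervals are too narrow.

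The total of each library was fitted so that RPKM times length was whole for genes with 1 exon in GENCODE M21, and at least 99.4 % of such values came within 0.02 of a whole count. Lengths of other genes were the GENCODE exon union (4 of the 9 genes), a transcript, or the smallest length giving whole counts (5 of the 9). Counts of the 9 genes lay within 0.0007 of whole numbers. All genes together had 61651371, 71866776, 133014750 and 69001162 counts across NGOs, GO1, GO2 and FGOs, and 3 counts on 1 kb of exon correspond to between 0.0124 and 0.0271 RPKM. With 1 library per stage no test was possible.

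Changes are log2 ratios of these counts for genes with 20 or more in the pair, with a prior count of 1. Libraries were scaled by the TMM principle, with 30 % of ratios and 5 % of mean expression trimmed at each end, and the threshold was 2-fold. Intervals of levels are Poisson, of changes exact and conditional on the sum of both counts, and of shares and ratios by the delta method. Python 3.11.15, numpy 2.4.6, pandas 2.3.3, scipy 1.17.1 and matplotlib 3.10.9 were used, and the steps were tested on simulated data. Other scalings, prior counts, pseudocounts, thresholds and minimums were tried. Of 2 rows named Pde4d, the higher was used.

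The 9 genes and the pathway lists were chosen with earlier results of these data known. Each list names its 3 genes of highest mean RPKM and up to 4 per pair and direction past 2-fold with 100 counts or more in the higher library. Other list genes, markers and overlapping genes were named after their values were seen. Protein sequences were not used here.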

Additional observations from a re-analysis of the deposited data

How the results depend on the processing

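With 1 library per stage, no replicate could be left out and no variation between pools of oocytes could be estimated, and depth limits the values of Gpr12 in NGOs and GO1 and of Adcy3 in every library. Under 6 other scalings, prior counts and pseudocounts, all 9 genes kept the direction of their change in the NGO to FGO pair, and 8 in the GO1 to GO2 pair, the exception being Adcy3 (-0.01 to 0.03 on the log2 scale). Of the 108 changes recomputed in this way, 12 lay outside the counting interval of the reported change, among them those of Gpr12 with 0.1 RPKM added (2.36 and 1.07 in these pairs). The number of the 9 genes past the threshold from NGOs to FGOs was 1 with a 4-fold threshold and 1 with log2(RPKM + 1), where Gpr12 was lost, and from GO1 to GO2 it was 0 with log2(RPKM + 1). Other settings gave the reported numbers within 1.5 times. Counts not divided by length gave shares of Pde3a of 34.6, 36.8, 33.5 and 34.7 % across NGOs, GO1, GO2 and FGOs, a share of Adcy3 of 0.148 % in GO2, and regulatory to catalytic ratios of 0.939 in NGOs, 1.31 in GO2 and 2.28 in FGOs. Leaving genes at or below 0.1 RPKM in all 4 libraries out of the family sums, other than Adcy3 itself, which is that low, moved no share beyond its interval, and no kinase subunit of the ratio is that low. No paired analysis was possible because each group has 1 library and the labels give no replicate numbers.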

Other observations

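Cyclic AMP also acts through proteins other than the kinase. Of 14 genes for such effectors and for cyclic AMP-responsive transcription factors, 12 had enough counts in the NGO to FGO pair, of which 5 were at least 2-fold higher in FGOs and 1 lower. In the GO1 to GO2 pair 13 had enough, of which 4 were higher in GO2 and none lower. Over all genes tested, 17.7 % were higher and 16.8 % lower from NGOs to FGOs, and 7.28 % and 2.6 % from GO1 to GO2. The exchange factor genes Rapgef3 and Rapgef4, whose products activate the small GTPase Rap on binding cyclic AMP, were at 0.624 and 0.179 RPKM in NGOs and at 3.15 and 1.04 in FGOs, with log2 changes of 2.39 (2.24 to 2.54) and 2.59 (2.33 to 2.88). From GO1 to GO2 the log2 change of Rapgef3 was 1.49 (1.29 to 1.69). Popdc2, a membrane protein that binds cyclic AMP, was at 0.134, 0.234, 0.665 and 1.71 RPKM across NGOs, GO1, GO2 and FGOs, and the cyclic nucleotide-gated channel gene Cnga2 at 0.184, 0.319, 1.03 and 0.775. Popdc3, of the same family as Popdc2, was the remaining gene past 2-fold, with log2 changes of 2.02 and 1.04. Each of these genes was thus higher in the later library of each pair, from a low level.

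Of the transcription factors and coactivators on the list, Crtc2 alone passed 2-fold. Crebbp, a coactivator of CREB, was at 10.1, 27.5, 18.8 and 8.46 RPKM across the same libraries, and Atf1 at 10.3, 14.2, 9.86 and 7.66. Both were highest in GO1 and lowest in FGOs. Crtc3 was higher in FGOs than in NGOs by 0.53 on the log2 scale (0.39 to 0.67) and higher in GO2 than in GO1 by 0.07 (-0.05 to 0.19). Crtc2, a coactivator regulated by cyclic AMP, changed by -1.18 (-1.61 to -0.78) from NGOs to FGOs, at no more than 0.376 RPKM.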
